A study of Rattus norvegicus with 45 samples.

Results

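Potassium channel genes were taken as all genes whose symbol on the rat array begins with Kcn, with the probe set of the highest mean signal standing for each gene. This gave 75 genes of the 14218 genes on the array with a probe set of their own, and 47 of the 75 had a mean signal above the filter on low values, among 10248 genes that passed it. The filter removed probe sets in the lowest 40% of mean signal. The 47 tested members comprised 5 of 6 shaker-type (Kv1) genes, 5 of 8 genes for Kv2 and silent subunits, all 3 Kv3 and all 3 Kv4 genes, 2 of 3 genes for KvLQT and M-current channels, 4 of 8 ether-a-go-go genes, 4 of 7 calcium- or sodium-activated channel genes, 9 of 15 inward rectifier genes, 4 of 11 two-pore genes and 8 of 11 auxiliary subunit genes. Passing the filter depends on the mean signal over all arrays, at a level of 5.88 on the log2 scale. The other 28 members, Kcnj5 and Kcne2 among them, had a mean below it, and 6 of these had a mean above it in at least 1 group of rats and region.

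The study treated male Sprague-Dawley rats, aged 9 to 11 weeks at implantation of a subcutaneous minipump, for 21 days, so that effects of antipsychotic drugs could be read in healthy brain. The groups were risperidone at 5 mg/kg/d, haloperidol at 0.25 mg/kg/d and vehicle (dilute acetic acid in water), with 5 rats each. Every rat gave frontal cortex, hippocampus and striatum, so that 45 arrays were available. No rat carried a disease model, each drug was given at 1 dose, and the samples were dissected tissue in which all cell types are mixed.

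Potassium channels set the resting potential of neurons and glia, end the action potential and determine how fast a neuron can fire again. Voltage-gated (Kv) channels open on depolarization, inward rectifiers (Kir, Kcnj genes) hold the membrane near rest, and two-pore channels carry leak current. The G protein-gated inward rectifiers of Kcnj3, Kcnj5, Kcnj6 and Kcnj9 (GIRK) are opened by receptors that couple to inhibitory G proteins, the dopamine D2 receptor among them, which both drugs block. The channel of Kcnh2 (hERG) is itself blocked by many antipsychotic drugs.

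The deposited values are array intensities and were compared on the log2 scale, where a difference of 1 is a doubling. A value of one probe set cannot be set against that of another, so all comparisons were made within a gene. The regions lie on different overall levels, with array medians of 106.7 to 110.4 in hippocampus, 89.9 to 93.1 in frontal cortex and 87.9 to 92.1 in striatum. The median probe set differed by -0.06 between striatum and frontal cortex, by 0.25 between hippocampus and frontal cortex and by -0.30 between striatum and hippocampus, and region differences are given less this shift. Markers fitted the labelled regions in vehicle rats: Drd1, Drd2 and Adora2a averaged 11.79, 10.84 and 11.42 in striatum, against 6.75, 5.40 and 5.57 in frontal cortex, and Fibcd1 averaged 8.88 in hippocampus, against 4.91 in frontal cortex.

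Several libraries stood apart in markers of neighboring tissue. In frontal cortex, the mean of 6 olfactory bulb markers (Doc2g, Eomes, Th, Calb2, Dlx1 and Cdhr1; Eomes and Th had a mean signal under the filter) lay 2.27 and 1.77 above the region's mean in risperidone rats 2 and 5, with -0.35 to -0.02 in the other 3. It ran from -0.54 to 0.92 in haloperidol rats, the highest in rat 5, and from -0.70 to -0.43 in vehicle rats. In striatum, the mean of 6 markers of pyramidal neurons (Slc17a7, Neurod2, Neurod6, Tbr1, Nrgn and Cck) ran from -0.83 to 1.54 in risperidone rats, from -0.45 to 0.98 in haloperidol rats and from -0.86 to -0.03 in vehicle rats. It was highest in risperidone rats 3 and 5 and haloperidol rats 5 and 3. These 4 striatum libraries and the frontal cortex libraries of risperidone rats 2 and 5 and haloperidol rat 5 are the 7 libraries left out below, and those of risperidone rats 2 and 5 in frontal cortex and risperidone rat 3 in striatum are the 3. Markers of meninges and choroid plexus were high in striatum of risperidone rat 5 (1.18), haloperidol rat 1 (1.82) and vehicle rat 1 (1.89), and in hippocampus of risperidone rat 3 (1.68). Markers of striatal projection neurons were high in frontal cortex of risperidone rat 1 (0.94), with -0.37 to 0.31 in the other 14 rats; this library is not among the 7 and was left out only where its whole rat was. In whole tissue, fewer cells of a type and less RNA per cell cannot be told apart.

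For some members with a drug or region difference, picked by hand and not by rank among those that the RefSeq promoter table holds, the 250 bases before the gene start are shown. They are given 5′ to 3′ on the gene's strand in build GRCr8, for chr10:96517074-96517323 (Kcnj16, plus strand), chr3:114215086-114215335 (Kcna4, plus strand), chr11:47778349-47778598 (Kcnj6, minus strand) and chr13:87320294-87320543 (Kcnj9, minus strand). Capitals mark a GC box (GGGCGG), searched with the cAMP response element half-site (TGACG) and the TATA box (TATAAA) on both strands.
Kcnj16: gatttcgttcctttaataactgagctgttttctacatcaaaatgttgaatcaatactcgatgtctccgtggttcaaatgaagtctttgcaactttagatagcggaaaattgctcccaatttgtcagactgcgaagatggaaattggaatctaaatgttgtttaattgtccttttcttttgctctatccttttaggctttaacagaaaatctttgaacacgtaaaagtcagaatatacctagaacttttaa
Kcna4: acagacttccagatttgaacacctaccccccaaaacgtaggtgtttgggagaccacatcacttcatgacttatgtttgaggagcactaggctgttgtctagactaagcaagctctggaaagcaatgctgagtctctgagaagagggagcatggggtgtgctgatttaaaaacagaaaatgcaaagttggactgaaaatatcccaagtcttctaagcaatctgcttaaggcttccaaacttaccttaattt
Kcnj6: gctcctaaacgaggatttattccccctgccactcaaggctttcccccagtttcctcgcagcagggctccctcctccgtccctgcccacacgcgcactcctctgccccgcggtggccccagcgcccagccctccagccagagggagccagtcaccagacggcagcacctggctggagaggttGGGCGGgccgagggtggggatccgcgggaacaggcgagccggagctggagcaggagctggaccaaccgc
Kcnj9: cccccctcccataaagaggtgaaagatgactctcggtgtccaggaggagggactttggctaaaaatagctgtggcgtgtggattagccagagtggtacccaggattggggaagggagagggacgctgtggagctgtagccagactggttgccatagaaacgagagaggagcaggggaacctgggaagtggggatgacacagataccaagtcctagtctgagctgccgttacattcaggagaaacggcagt
The Kcnj16 window held 33.6% G and C and the Kcnj6 window 69.2%. Of 33469 promoter windows in the table, 30.5% held the GC box, 18.2% the half-site and 12.9% the TATA box, and among 38 windows of 33 tested members 19, 6 and 1 did, in this order. A match describes letters only. The other 3 windows shown held none of these motifs.

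The regions of vehicle rats were compared first, to show where each channel gene was high or low without a drug. Striatum had lower signal than frontal cortex for the 3 tested GIRK genes, all 3 Kv3 genes and the silent subunit Kcns3, and higher signal for the A-type channel gene Kcna4, for Kcna5, for the Kv4 genes Kcnd1 and Kcnd2 with their partner Kcnip2, for the beta subunit Kcnab1, for the sodium-activated Kcnt1 and for the two-pore channel gene Kcnk2. A member was called between regions where the adjusted p was below 0.05 and the difference, with the shift not taken off, was 2-fold or more, so that some called members differ by under 2-fold less the shift. By this rule 8 members were higher and 15 lower in striatum than in frontal cortex (17% and 31.9% of 47), while 3.21% of all 10248 genes were higher and 5.46% lower. In hippocampus against frontal cortex, 3 members were higher and 4 lower, against 2.87% and 1.17% of all genes, and in striatum against hippocampus 6 were higher and 12 lower, against 2.3% and 7.74%. In 8 of the 23 calls between striatum and frontal cortex and 7 of the 18 between striatum and hippocampus, the mean of 1 region lay below the filter level. Such a member passed the filter through the region where it is high, and the size of its difference is not exact, since the files give no call of signal above background. In all, 26 of the 47 members were called in at least 1 of the 3 region comparisons and 5 in all 3. The same count was not made over all genes, so that it gives no result about the members as a group. With each array centred on its median, 8 members were higher and 15 lower in striatum than in frontal cortex (8.6% of all genes called in either direction), 1 higher and 5 lower in hippocampus than in frontal cortex (3.82%), and 8 higher and 8 lower in striatum than in hippocampus (8.25%). That centring kept the direction of 23 of the 23 calls, 5 of the 7 and 14 of the 18, and Kcnip2 and Kcnj6 in hippocampus against frontal cortex, and Kcnc1, Kcnd3, Kcnip4 and Kcnk4 in striatum against hippocampus, were then under 2-fold.

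**Figure D1:**
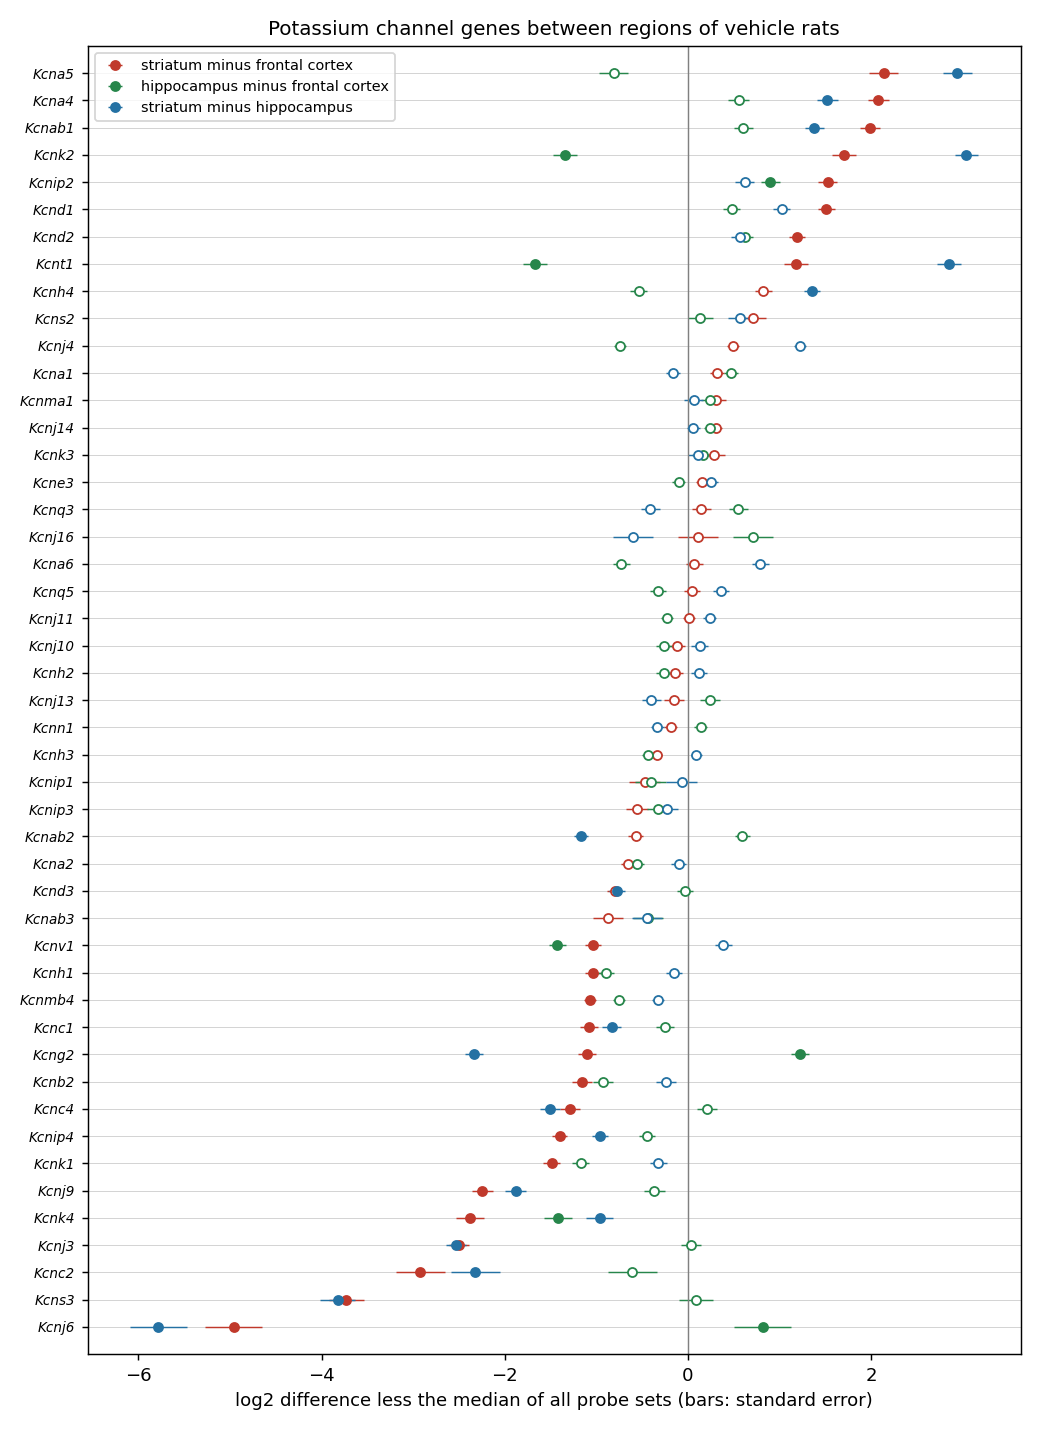
Differences between regions of vehicle rats for the 47 tested potassium channel genes, in log2 units less the median of all probe sets, sorted by striatum minus frontal cortex; bars are standard errors and filled points were called. Kcnj6, at -4.96 and -5.78, lies farthest to the left, and Kcna5 and Kcnk2 lead on the striatal side.

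Kcnj6, which encodes GIRK2, had 4.29, 4.69, 4.12, 4.63 and 4.35 in striatum of the 5 vehicle rats, against 9.61, 9.31, 9.45, 9.42 and 9.38 in frontal cortex and 10.32, 10.58, 10.70, 10.46 and 10.46 in hippocampus. All striatal values lay far below the others, and those of hippocampus lay above those of frontal cortex. The difference less the shift was -4.96 for striatum against frontal cortex and -5.78 against hippocampus (standard error 0.31 each), with all striatal values below the filter level. The other 3 Kcnj6 probe sets were under the filter and differed by -0.63 to -1.92 between striatum and frontal cortex, so that the size depends on the probe set. The GIRK1 gene Kcnj3, which forms the common partner subunit, had 5.52, 5.61, 5.82, 5.81 and 5.66 in striatum, against 8.41, 8.0, 8.27, 8.32 and 8.18 in frontal cortex and 8.42 to 8.64 in hippocampus. The GIRK3 gene Kcnj9 had 5.29, 4.81, 4.91, 4.87 and 5.22 in striatum, against 7.45, 7.20, 7.42, 7.29 and 7.23 in frontal cortex and 7.10 to 7.28 in hippocampus. Striatal and cortical values did not overlap for any of the 3 genes, and less the shift the difference was -2.50 for Kcnj3 and -2.24 for Kcnj9 (standard error 0.11 each), again with every striatal value below the filter level. A second tested Kcnj3 probe set differed by -1.21, beside -2.55 for the one used, with the shift not taken off. Another Kcnj3 probe set, under the filter, differed by 0.13, so that this size depends on the probe set too. Kcnj5, the fourth GIRK gene, was under the filter, with 5.58 to 5.72 in striatum, 5.46 to 5.88 in frontal cortex and 5.84 to 6.08 in hippocampus, and was not tested.

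The Kv3 genes Kcnc1, Kcnc2 and Kcnc4, whose channels let neurons such as parvalbumin interneurons fire fast, were all lower in striatum. Kcnc2 had 7.92, 7.76, 8.02, 7.93 and 7.56 in striatum, against 10.98, 10.59, 10.89, 10.90 and 10.71 in frontal cortex. Less the shift, the difference between striatum and frontal cortex was -2.92 for Kcnc2 (standard error 0.27, adjusted p = 7.3e-13), -1.29 for Kcnc4 and -1.08 for Kcnc1, and that between striatum and hippocampus -2.32, -1.51 and -0.83. The interneuron marker Pvalb averaged 7.71 in striatum and 10.15 in frontal cortex. Of the other listed interneuron markers, Sst (10.12 and 11.02) and Vip (4.65 and 10) were also lower in striatum. Npy was nearly level (10.3 and 10.37), while Gad1 (12.52 and 11.54) and Gad2 (9.93 and 8.25) were higher there. The part of these markers in the result was not tested. Kcns3, a silent subunit that modifies Kv2 channels, had 4.41, 4.22, 4.22, 4.52 and 4.10 in striatum, against 8.32, 7.64, 8.13, 8.24 and 8.06 in frontal cortex and 8.22 to 8.58 in hippocampus. No striatal value came near the others, with differences of -3.73 and -3.82 less the shift (standard error 0.19 each), but all striatal values lay below the filter level. The silent subunit gene Kcng2 differed among all 3 regions, with 6.23 to 6.56 in striatum, 8.82 to 9.21 in hippocampus and 7.53 to 7.65 in frontal cortex. Among the two-pore genes, Kcnk4 (TRAAK) and Kcnk1 were lower in striatum than in frontal cortex (-2.38 and -1.49 less the shift).

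Members higher in striatum included Kcna4, whose channel carries fast A-type current, and the beta subunit gene Kcnab1, whose protein speeds inactivation of Kv1 channels. Kcna4 had 9.81, 10.01, 9.90, 10.01 and 9.95 in striatum, against 8.09, 7.70, 7.93, 8.05 and 7.80 in frontal cortex and 8.59 to 8.87 in hippocampus. The ranges were apart, and less the shift striatum was higher than frontal cortex by 2.08 for Kcna4 (standard error 0.12, adjusted p = 1.02e-18) and by 1.99 for Kcnab1 (adjusted p = 2.41e-19). Kcna5 had 7.93, 8.10, 7.91, 7.79 and 8.0 in striatum, against 5.68 to 5.99 in frontal cortex and 5.18 to 5.62 in hippocampus, and was higher by 2.14 and 2.94, with the means of frontal cortex and hippocampus below the filter level. Of the Kv4 family, which carries the A-type current of dendrites, Kcnd1 and Kcnd2 were higher in striatum than in frontal cortex by 1.51 and 1.19, and Kcnip2, a KChIP protein that carries Kv4 channels to the surface, by 1.53. Against hippocampus, Kcnd1, Kcnd2 and Kcnip2 differed by 0.72, 0.26 and 0.32 with the shift not taken off, and none was called. With arrays centred on their median, Kcnd1 was called there. The level of Kcnd2 and Kcnip2 was thus not particular to striatum. The third Kv4 gene, Kcnd3, differed by -0.80 between striatum and frontal cortex and by -0.77 between striatum and hippocampus less the shift, under 2-fold in both. Kcnk2 (TREK-1) had 10.28, 10.44, 10.65, 10.59 and 10.54 in striatum, against 7.49 to 8.08 in hippocampus and 8.68 to 9.00 in frontal cortex. Kcnt1, a sodium-activated channel gene, had 9.16, 9.32, 9.18, 9.30 and 9.43 in striatum, against 6.42 to 7.20 in hippocampus. Both lay above every value of the other region, and their differences less the shift were 3.04 and 2.85. Other tested probe sets of these genes differed by -0.03 for Kcnk2 and by 1.79 and -0.18 for Kcnt1, with the shift not taken off, so that the Kcnk2 and Kcnt1 differences depend on the probe set. Between striatum and frontal cortex, the second tested Kcnk2 probe set differed by 0.33, beside 1.65 for the one used, with the shift not taken off. Kcnh4, of the ether-a-go-go family, had 6.80 to 6.94 in striatum, against 5.61 to 6.10 in hippocampus, a difference of 1.36 less the shift. With the shift not taken off it was 1.05, and 0.98 without vehicle rat 5, which is under 2-fold.

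Between hippocampus and frontal cortex, 7 members were called at 2-fold, while at 1.2-fold the count was 32, beside 33 between striatum and frontal cortex. By size alone, with no test and the shift not taken off, 47.4% of all genes were higher and 6.38% lower by 1.2-fold in hippocampus. The share of all genes called at 1.2-fold was not computed, so that the count of 32 gives no result about the members. Kcng2, Kcnip2 and Kcnj6 were higher in hippocampus, by 1.23, 0.90 and 0.82 less the shift. Kcnt1, Kcnv1 (a silent subunit), Kcnk4 and Kcnk2 were lower there, with differences of -1.67, -1.43, -1.42 and -1.34. Other tested probe sets went the other way for Kcnk2 (0.35) and, in 1 of 2, for Kcnt1 (0.22 and -0.88), with the shift not taken off. With arrays centred, Kcnk1 was called as well (-1.17 less the shift). Kcnv1 had 9.42 to 9.67 in hippocampus, against 10.58 to 10.83 in frontal cortex, and the ranges did not overlap. By family, 4 of 5 tested genes for Kv2 and silent subunits were lower in striatum than in frontal cortex, as were 3 of 3 Kv3 genes and 3 of 9 inward rectifier genes, while 2 of 5 Kv1 and 2 of 3 Kv4 genes were higher. Of all genes, 5.46% were lower and 3.21% higher, and no family was tested as a set. The striatal means of Kcnb2 and Kcns3 lay below the filter level. A second tested probe set of Kcng2 differed by -0.38, beside -1.16 for the one used, with the shift not taken off. Neither of the tested Kcnq genes was called between regions.

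Within single rats of all 3 treatments, the same regions could be set against each other in 15 rats. All 23 members called between striatum and frontal cortex in vehicle rats kept their sign in each of the 15 rats, as did all 7 called between hippocampus and frontal cortex and 17 of the 18 called between striatum and hippocampus. The exception was Kcna4, with differences of -0.06 to 1.35, the lowest in risperidone rat 3. Kcnj6 ranged from -5.33 to -1.84 between striatum and frontal cortex, the least negative also in risperidone rat 3. Fitted over all 15 rats, 19 of the 23 members, 4 of the 7 and 15 of the 18 were again called at 2-fold in the same direction. The vehicle rats through which these members were called are among the 15, in the signs and in this fit. Only the rats given a drug add to the calls, and the same shares over all genes were not computed.

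Among 17 genes for channel partners and related pore proteins (such as Dpp6, Dpp10, Abcc8, Cntnap2 and the Hcn genes), 12 were tested. Lower signal in striatum than in frontal cortex was called for 2, Dpp10, a Kv4 partner (-2.00 less the shift), and Lingo1 (-2.24), and none was higher. Dpp10 was also lower in hippocampus than in frontal cortex (-2.13), and Lingo1 lower in striatum than in hippocampus (-1.34). Of all genes, 5.46% were lower and 3.21% higher in striatum than in frontal cortex. Lower in these other comparisons were 1.17% and 7.74% of all genes, in this order. With so few calls, the counts give no result about the partners as a group.

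Risperidone was then set against vehicle in each region, the question being which channel genes respond to the drug. In frontal cortex, Kcnj16 and Kcnh2 were higher and Kcna1 was lower in risperidone rats (2 higher and 1 lower of 47 members, against 1.93% and 1.37% of all genes; a drug call needs an adjusted p below 0.05 and 1.2-fold or more). In striatum, Kcnn1 was higher and Kcna4 lower (1 and 1 of 47, against 0.995% and 2% of all genes). With 5 calls in all, the counts give no result about the channel genes as a group. The median member differed by -0.07 in frontal cortex, by -0.03 in hippocampus and by 0.04 in striatum, beside 0.03, 0.03 and -0.02 over all genes tested. Of 17 members with several tested probe sets, 10 to 14 had the same sign in all of them, depending on the drug and region.

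**Figure D2:**
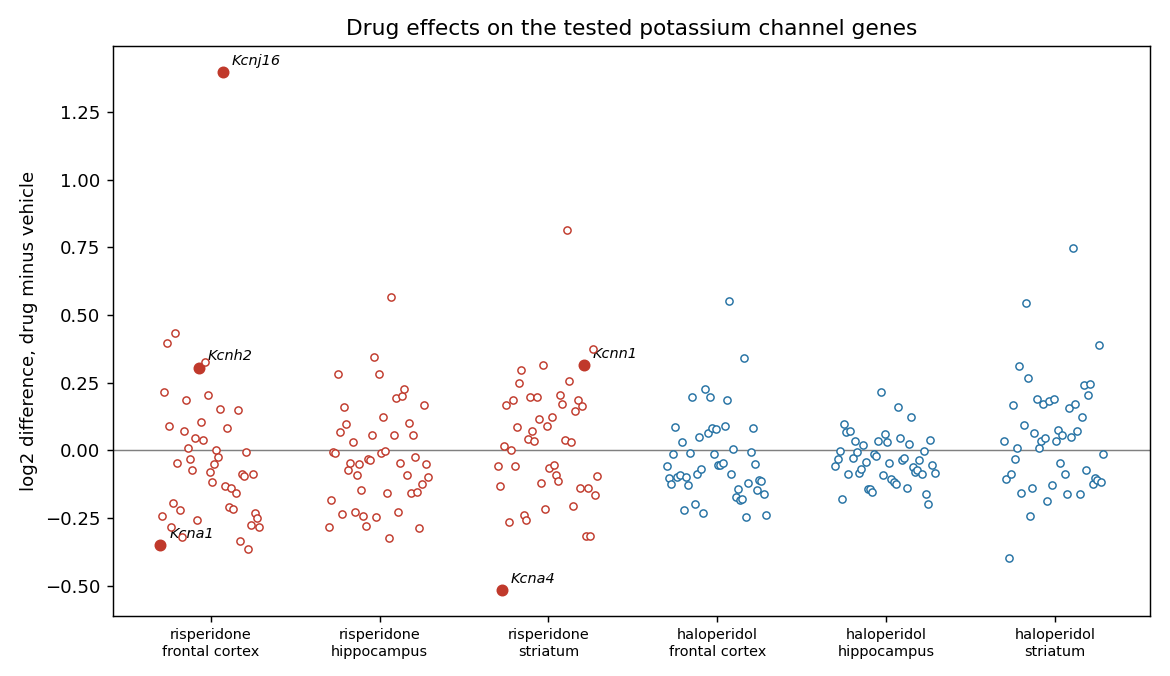
Difference between each drug and vehicle, in log2 units, for the 47 tested potassium channel genes in 3 regions; each point is a gene, and filled points with names were called. All 5 called points belong to risperidone, with Kcnj16 in frontal cortex the highest at 1.40, and none to haloperidol.

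Kcnj16 encodes Kir5.1, a subunit that joins the glial channel Kir4.1 and makes it sensitive to pH. In frontal cortex it had 6.03, 7.60, 6.57, 6.09 and 7.22 in risperidone rats and 5.94, 5.68, 6.12, 5.47 and 6.05 in haloperidol rats, against 5.39, 5.15, 4.90, 5.70 and 5.37 in vehicle rats. Every risperidone value lay above every vehicle value, and risperidone rats 2 and 5 were the highest. The difference from vehicle was 1.40 (standard error 0.25, 2.64-fold, adjusted p = 0.00102 from limma), with all vehicle values below the filter level, so that its size is not exact. The mean of Kcnj16 over all arrays, 5.94, was just above the filter level of 5.88. The frontal cortex of risperidone rats, at a mean of 6.70, counts in it. Kcnj16 passed the filter only with this group, where it is high, counted in. Rats 2 and 5 were the ones whose frontal cortex was high in olfactory bulb markers, and without these 2 libraries and the striatum of risperidone rat 3 the difference was 0.93 (adjusted p = 0.00982). The second Kcnj16 probe set, under the filter, differed by 0.64 (adjusted p = 0.0203 with no filter). Kcnj10, the gene of Kir4.1, chosen here after its values were seen, differed by -0.05 (standard error 0.10, adjusted p = 0.804).

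**Figure D3:**
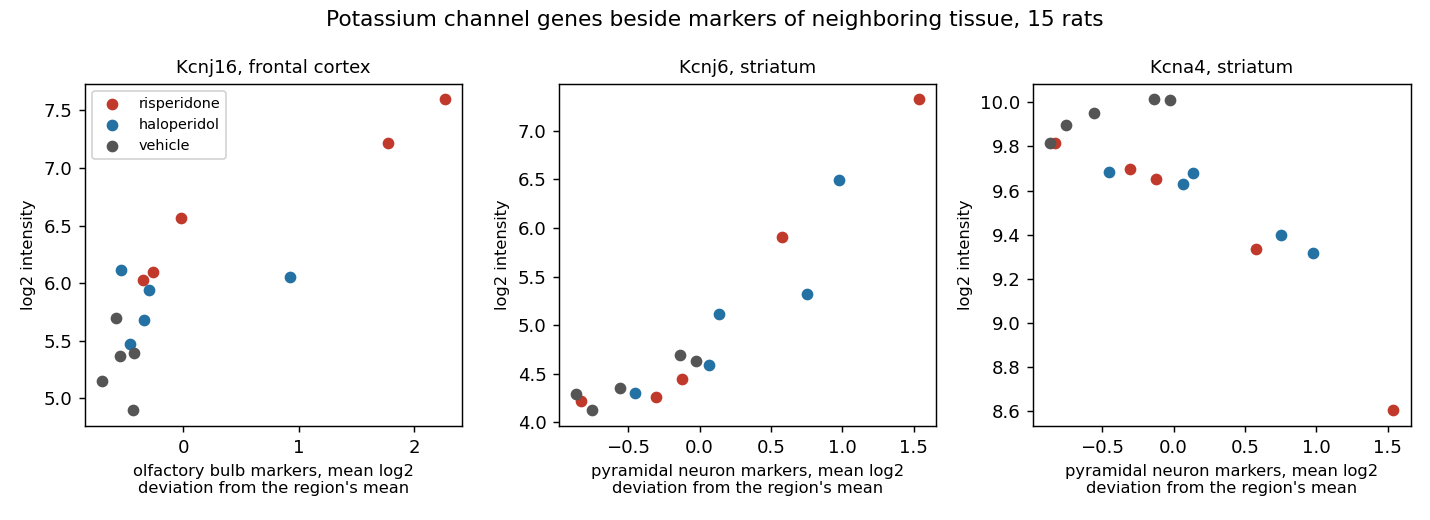
Log2 intensity of Kcnj16 in frontal cortex and of Kcnj6 and Kcna4 in striatum, plotted for 15 rats against the mean deviation of marker genes of neighboring tissue (olfactory bulb or pyramidal neurons) from the mean of the region. Risperidone rats 2 and 5 lie highest in Kcnj16 and olfactory bulb markers, and risperidone rat 3 lies highest in Kcnj6 and lowest in Kcna4 at the highest level of pyramidal neuron markers.

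Kcnh2 had 6.83, 6.69, 6.83, 6.78 and 6.99 in frontal cortex of risperidone rats and 6.68, 6.85, 6.51, 6.72 and 6.94 in haloperidol rats, against 6.34, 6.37, 6.70, 6.56 and 6.61 in vehicle rats. Risperidone and vehicle values overlapped in 1 pair of rats. The difference of 0.31 (standard error 0.10) was just past the threshold, at an adjusted p of 0.0495, and it was lost without 9 of the 10 rats, one at a time (adjusted p up to 0.139, without vehicle rat 1) and without the 3 libraries (adjusted p = 0.109). Kcna1, whose Kv1.1 channel limits repetitive firing at axons, had 9.36, 8.92, 8.81, 8.99 and 9.13 in risperidone rats and 9.27, 9.34, 9.27, 9.41 and 9.38 in haloperidol rats, against 9.43, 9.22, 9.50, 9.49 and 9.31 in vehicle rats. Of the risperidone rats, 4 lay below every vehicle rat and rat 1 lay among them, and the difference was -0.35 (standard error 0.09, adjusted p = 0.0148). It was lost without risperidone rat 2 or vehicle rat 4 (adjusted p = 0.0544 and 0.053) and kept without the 3 libraries (adjusted p = 0.0475). Adam22, whose protein sits with Kv1 channels on axons, was the only partner gene called with a drug, lower in frontal cortex of risperidone rats (-0.30, adjusted p = 0.0146). It was 1 of 12 tested partners, against 1.37% of all genes lower there.

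Genes of the M-current, Kcnq3 and Kcnq5, lay just short of the threshold in the same comparison. They were picked here outside the rule by which members were named. Kcnq3 had 6.68, 6.46, 6.66, 6.85 and 6.71 in frontal cortex of risperidone rats, against 7.13, 6.86, 7.03, 7.04 and 7.13 in vehicle rats, and Kcnq5 had 10.47 to 10.66 in risperidone rats, against 10.80 to 10.92 in vehicle rats. The groups did not overlap for either gene, but the differences of -0.36 (adjusted p = 0.0508) and -0.28 (adjusted p = 0.0787) did not pass.

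In striatum, Kcnn1, the gene of the calcium-activated SK1 channel, had 7.01, 6.83, 6.87, 7.04 and 7.12 in risperidone rats and 6.75, 6.86, 6.91, 7.0 and 7.0 in haloperidol rats, against 6.49, 6.83, 6.49, 6.65 and 6.82 in vehicle rats. The lowest risperidone rat and the highest vehicle rat met at 6.83, and the difference was 0.32 (standard error 0.08, adjusted p = 0.0126), lost without vehicle rat 1 or 3 (adjusted p = 0.0543 and 0.0566) and without the 7 libraries high in markers of neighboring tissue (adjusted p = 0.0767). Kcna4 had 9.82, 9.70, 8.60, 9.65 and 9.34 in risperidone rats and 9.63, 9.68, 9.40, 9.68 and 9.31 in haloperidol rats, against 9.81, 10.01, 9.90, 10.01 and 9.95 in vehicle rats. Risperidone rat 3 was far the lowest, only rat 1 reached the vehicle range, and the difference was -0.52 (standard error 0.13, adjusted p = 0.016). Rat 3 was also highest in pyramidal neuron markers (1.54) and lowest in markers of striatal projection neurons (-0.92). Without rat 3 the difference was -0.31 (adjusted p = 0.114), and without the 7 libraries it was -0.21 (adjusted p = 0.162), while without the 3 libraries, this one included, it was -0.31 and still called (adjusted p = 0.0485). Kcnq3 in striatum had 7.0, 7.07, 6.03, 6.94 and 7.02 in risperidone rats, against 7.06 to 7.16 in vehicle rats, a difference of -0.31 that did not pass (adjusted p = 0.0958). All haloperidol values of Kcna4 lay below all vehicle values, with a difference of -0.40 that did not pass (adjusted p = 0.153).

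**Figure D4:**
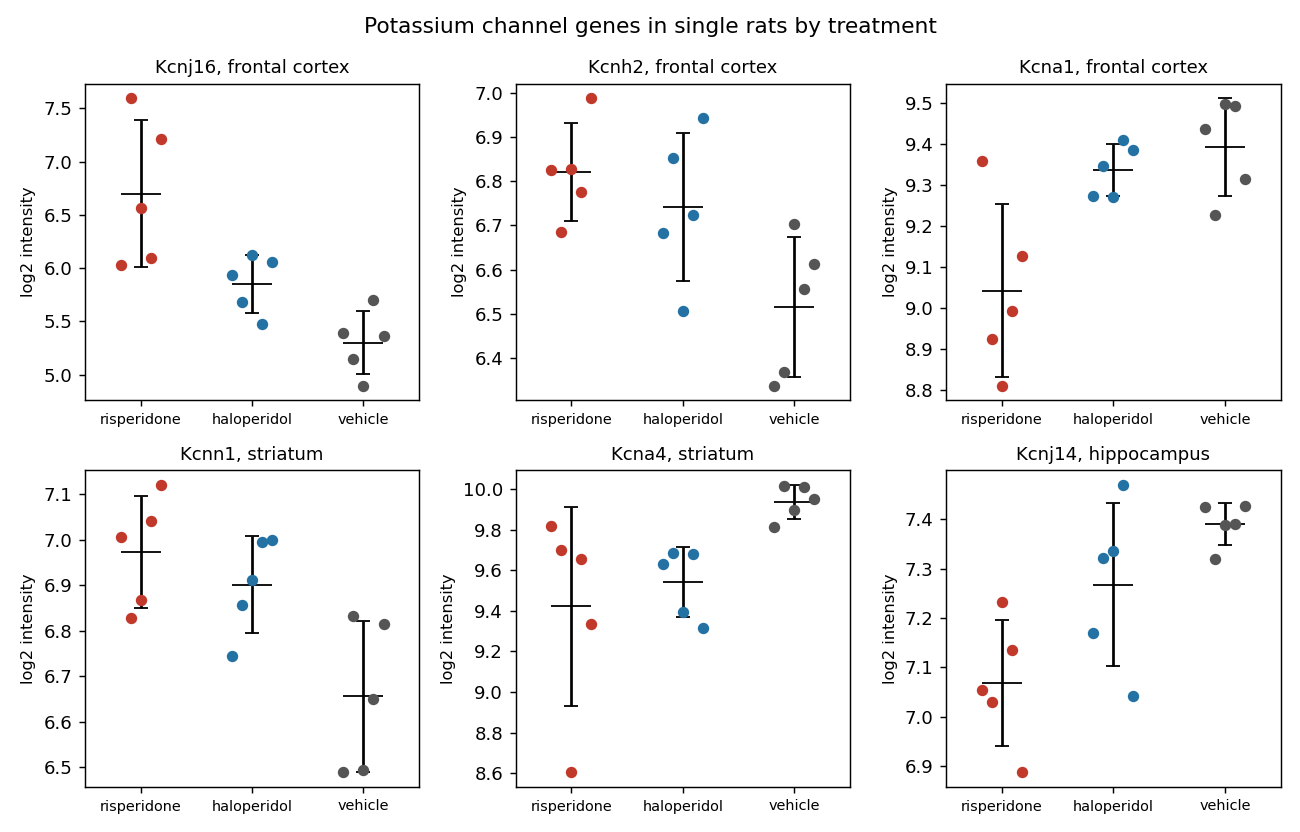
Log2 intensity in single rats (points), with the mean and SD of each group of 5 (bars), for the 5 members called between risperidone and vehicle and for Kcnj14 in hippocampus, each in the region named above the panel. The risperidone values of Kcnj16 all lie above, and those of Kcnj14 all below, the vehicle values, and Kcna4 has 1 low risperidone rat at 8.60.

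No member was called for risperidone in hippocampus, where 0.117% of all genes were called. At an unadjusted p under 0.05 in limma there were 12 of 47 members (25.5%), against 16.3% of all genes. Kcnj14, an inward rectifier gene, came nearest, with 7.06, 7.03, 7.23, 7.13 and 6.89 in risperidone rats, against 7.42, 7.32, 7.39, 7.39 and 7.43 in vehicle rats. Its groups did not overlap, and the difference was -0.32 (standard error 0.08, adjusted p = 0.0622). Kcna1, with 9.62 to 10.10 in risperidone rats and 9.87 to 10.23 in vehicle rats, differed by -0.28 (adjusted p = 0.11), and Kcnq5 by -0.29 (adjusted p = 0.148).

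Haloperidol gave no called member in frontal cortex, hippocampus or striatum, where 0.146%, 0% and 0.263% of all genes were called. At an unadjusted p under 0.05 in limma the counts were 6, 0 and 7 of 47 (12.8%, 0% and 14.9%), against 12.6%, 3.45% and 14.9% of all genes. The smallest p-values belonged to the two-pore gene Kcnk3 (0.34, adjusted p = 0.253), Kcnj14 (0.19, adjusted p = 0.276) and Kcnh2 (0.23, adjusted p = 0.292) in frontal cortex. In striatum they belonged to Kcnn1 (0.25, adjusted p = 0.138), Kcna4 and Kcnmb4, an accessory subunit of the BK channel (0.20, adjusted p = 0.185). In hippocampus Kcne3, Kcnq5 and Kcnj14 differed by -0.14, -0.16 and -0.12, with an adjusted p of 1 each.

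Risperidone against haloperidol was tested directly, since both comparisons above share the vehicle rats. No member was called in frontal cortex, hippocampus or striatum, where 0.878%, 0% and 0% of all genes were called, and 7, 3 and 0 of 47 members (14.9%, 6.38% and 0%) had an unadjusted p under 0.05 in limma, against 23.5%, 5.55% and 3.77% of all genes. Kcnj16 in frontal cortex was higher with risperidone by 0.85 (95% interval 0.35 to 1.35, adjusted p = 0.0592), but by 0.38 without the 3 libraries (adjusted p = 0.319) and 0.44 without the 7 (adjusted p = 0.304). Kcna1 differed by -0.29 (-0.47 to -0.12, adjusted p = 0.0617). Kcnq3 followed, at -0.32 (adjusted p = 0.114), and in hippocampus Kcnj4, Kcnj14 and Kcna1 differed by 0.23, -0.20 and -0.23 (adjusted p = 0.788, 0.81 and 0.81). In striatum Kcnab1, Kcnq3 and Kcnj16 differed by -0.23, -0.19 and 0.36, each with an adjusted p of 1.

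The GIRK genes, effectors of the receptor that both drugs block, were called with neither drug. In striatum Kcnj6 had 4.22, 4.26, 7.32, 4.45 and 5.91 in risperidone rats and 4.59, 4.30, 5.32, 5.12 and 6.50 in haloperidol rats, against 4.12 to 4.69 in vehicle rats. The high rats, risperidone 3 and 5 and haloperidol 5 and 3, were the 4 with the highest pyramidal neuron markers, and the part of those markers in the spread was not tested. The differences from vehicle were 0.82 for risperidone (95% interval 0.10 to 1.53, adjusted p = 0.16) and 0.75 for haloperidol (0.04 to 1.46, adjusted p = 0.299). Kcns3 in striatum was also highest in risperidone rat 3 (5.97) and haloperidol rats 5 and 3 (5.24 and 5.12), against 4.10 to 4.52 in vehicle rats. Kcnc2 in striatum was highest in the same 4 rats as Kcnj6, with 9.81 and 8.58 in risperidone rats 3 and 5 and 9.47 and 8.85 in haloperidol rats 5 and 3, against 7.56 to 8.02 in vehicle rats. Kcnj3 and Kcnj9 differed from vehicle by 0.17 and 0.26 with risperidone and by 0.16 and 0.17 with haloperidol in striatum, and by -0.13, -0.14, -0.09 and -0.14 in frontal cortex, in the same order of drugs and genes. None of these passed the test.

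Kcne2, whose protein serves potassium channels of the choroid plexus and which was chosen after its values were seen, was under the filter and not tested. In striatum it had 7.18 in risperidone rat 5, 8.25 in haloperidol rat 1 and 8.36 in vehicle rat 1, while the other 12 rats had 4.76 to 5.79. In hippocampus it had 7.07 in risperidone rat 3, with 4.80 to 5.41 in the other 14 rats. These were the 4 libraries with the highest choroid plexus and meningeal markers in the 2 regions.

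Whether the effect of a drug differed between regions was tested in the same fit. The risperidone effect was lower in striatum than in frontal cortex for Kcna4 (-0.73, standard error 0.16, adjusted p = 0.0134) and Kcnj16 (-1.20, standard error 0.31, adjusted p = 0.0267), so that 2 of 47 members were lower and 0 higher, against 2.22% and 0.761% of all genes. Kcnj16 passed the filter only with the frontal cortex of risperidone rats counted in. Its call here and the count of 2 thus lean on the group where it is high. For Kcnj14 the comparison was another. The risperidone effect was lower in hippocampus than in frontal cortex for Kcnj14 (-0.48, standard error 0.10, adjusted p = 0.0139), with 1 of 47 lower and 0 higher, against 0.507% and 0.751% of all genes. Between striatum and hippocampus no member was called (1.63% of all genes called; 11 members, 23.4%, at an unadjusted p under 0.05 in limma, against 19.4% of all genes), and Kcnn1 had an adjusted p of 0.0518. For haloperidol no member was called between striatum and frontal cortex, hippocampus and frontal cortex, or striatum and hippocampus (0.0293%, 0% and 0% of all genes called, and 8, 2 and 5 members, or 17%, 4.26% and 10.6%, at an unadjusted p under 0.05, against 6.92%, 7.85% and 7.37% of all genes). With each array centred on its median, 3 members were lower and 3 calls were higher: Kcnn1 in striatum against both other regions (0.39 and 0.40) and Kcnmb4 in striatum against frontal cortex (0.32). Without the 3 libraries high in markers of neighboring tissue the Kcna4 difference was -0.37 (adjusted p = 0.133) and the Kcnj16 difference -0.96 (adjusted p = 0.0658), neither called. Without the 7 libraries Kcna4 was not called (-0.28, adjusted p = 0.127) and Kcnj16 was (-0.996, adjusted p = 0.0381). With the regions of a rat taken as independent none of the 3 passed (adjusted p = 0.0573 for Kcna4, 0.0922 for Kcnj16 and 0.0595 for Kcnj14).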

How the data were processed

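RNA of 3 brain regions of 15 rats was measured on 45 Affymetrix rat arrays. The authors made the deposited intensity values by Robust Multi-array Average (RMA) in R 2.7.2, per the labels and methods (background correction, normalization across arrays, 1 summary value per probe set). The sources used here do not say whether the regions were normalized together. The deposited intensities were put on the log2 scale. Of 31099 probe sets, 57 controls and those with a mean under the 40th percentile were left out, and 18609 (10248 genes) were tested; a single gene symbol belongs to 14116 of them, several to 306 and none to 4187. A mean for each of 9 groups of region and treatment was fitted with limma 3.58.1 in R 4.3.3, the rat entering as random block (correlation 0.226; 39.9 degrees of freedom for the tests). Benjamini-Hochberg adjustment ran over all tested probe sets of a comparison. Deviations of the same rat in 2 regions correlated with a median of 0.354, so that the block marks a shared animal. The script was tested on simulated data.

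Named by rule were all members called with a drug, between drugs or in a drug effect between regions, the 3 with the smallest p where fewer than 3 were called in a drug comparison, the 6 largest region differences in each direction, the GIRK genes and Kcnh2. Other values were picked outside this rule. Among them are the drug values of Kcnq3 and Kcnq5 in frontal cortex and of Kcns3 and Kcnc2 in striatum. Marker lists (11) and a partner list were used. The members and lists were chosen with earlier results of these data known. Gene sequences came from RefSeq (GRCr8), in which 33 of the 47 tested members were matched by symbol. The number of arrays limits precision.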

Additional observations from a re-analysis of the deposited data

Results flagged for a closer look

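Of 96 groups of 5 rats tested for a sample far from the rest, 5 had one. The cutoff flags about 1 in 20 such groups where no sample stands apart. The groups share rats and libraries, however, and the cause of the flags was not tested. In striatum of risperidone rat 3, Kcnq3 had 6.03, while the other 4 rats had 6.94 to 7.07, and Kcnj16 had 6.56, while the others had 5.16 to 5.49. This library was also the highest in pyramidal neuron markers. In hippocampus, Kcnj4 had 7.53 in risperidone rat 1, below the 7.74 to 7.83 of the other 4, and 7.75 in vehicle rat 1, above the 7.48 to 7.53 of the others. In frontal cortex, Kcna4 had 7.54 in haloperidol rat 3, below the others at 7.80 to 7.90.

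The effect of risperidone differed between regions for 3 members by the test of the difference: Kcna4 (-0.73) and Kcnj16 (-1.20), striatum minus frontal cortex, and Kcnj14 (-0.48), hippocampus minus frontal cortex. With 1 rat left out at a time, the Kcnj16 difference was lost in 5 of 10 fits (adjusted p up to 0.0999 in limma). The Kcna4 difference was lost without vehicle rat 5 (adjusted p = 0.051) and the Kcnj14 difference without vehicle rat 4 (adjusted p = 0.0501).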

How the results depend on the processing

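Alternatives covered the filter, the block, scaling, the variance model, the choice of probe set, the thresholds and leaving out rats or libraries. Leaving out the 7 libraries high in markers, and the second Kcnj16 probe set, were chosen after seeing the data. Kcnj16 in frontal cortex was called with risperidone under all 21 alternatives run for it (adjusted p up to 0.0203), whereas Kcnh2 was lost under 16 of 21. The filter at the 60th percentile removes Kcnj16 and is not among its alternatives, while the fit with no filter is. Its mean over all arrays (5.94) was just above the filter level, with the high risperidone group counted in. The causes of the changes below were not tested. For drug comparisons and drug effects, the share of all genes called under each alternative was not computed. The changed counts thus give no result about the members.

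With risperidone in frontal cortex, 3 members were called, 5 with regions fitted separately, 1 with the filter at the 60th percentile, and 1 to 5 without single rats (1 without risperidone rat 2 or vehicle rat 4, 5 without risperidone rat 4). In striatum, 2 were called, 0 with regions fitted separately, 1 with the 60th percentile filter, 1 without the 7 libraries, and 1 to 3 without single rats (1 without risperidone rat 3 or vehicle rat 1 or 3). In hippocampus, 0 were called, 2 without the 3 or the 7 libraries, 1 with the mean of all probe sets of a gene, and 0 to 3 without single rats (3 without risperidone rat 1, 2 without vehicle rat 1, 1 without risperidone rat 5). Haloperidol in striatum gave 1 call (Kcna4) without the 3 libraries. Risperidone against haloperidol in frontal cortex gave 2 calls (Kcna1 and Kcnq3) with the mean of all probe sets, and 0 to 2 without single rats (2 without risperidone rat 1, 1 without risperidone rat 4 or 5 or haloperidol rat 1). Drug effects that differ between regions were 3, but 6 with arrays centred on their median, 5 with no filter, 5 with quantile normalization, 1 with the 60th percentile filter and 0 with no replicate block, that is, with the pairing of regions within a rat ignored. At 1.2-fold, 32 members differed between hippocampus and frontal cortex, 33 between striatum and frontal cortex and 35 between striatum and hippocampus. By size alone, with no test and the shift not taken off, 47.4%, 17.9% and 8.32% of all genes were higher by 1.2-fold, in this order. Lower by as much were 6.38%, 26.6% and 54.2% of all genes. Among differences between the drugs in striatum, 2 changed sign: Kcnab1 (0.00122 without the 7 libraries) and Kcnq3 (0.049 without them, and -0.255 to 0.00508 without single rats, the highest without risperidone replicate 3). Replicate numbers do not pair rats of different treatments (correlations of -0.383 to 0.551, 12 of 45 over 0.1), and a replicate block by number left every drug count within 1.5 times.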

Other observations

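Members whose mean over all arrays was under the filter were fitted once with no filter on low values. With the median shift not taken off, Kcnn3 (SK3) differed by 1.48 between striatum and frontal cortex of vehicle rats, and Kcns1, Kcnk12, Kcnh7 and Kcnh5 by -2.79, -1.73, -1.27 and -1.23. Between hippocampus and frontal cortex, Kcns1, Kcnj12 and Kcng3 differed by -2.11, -1.22 and -1.19, and between striatum and hippocampus Kcng3 and Kcnk12 by 1.45 and -1.84. With risperidone against vehicle in striatum, Kcnh5 was higher by 0.31 (limma, adjusted p = 0.0492), the only drug call among these 28 members. Its means there were 4.47 and 4.16, and the share of all genes called in this fit was not computed. At least 1 side of each difference in this paragraph lay below the filter level, so that the sizes are not exact.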
